A study of Mus musculus with 24 samples.

Results

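The transcripts described here are the precursors of 9 neuropeptides of the cortex, Vip, Sst, Npy, Crh, Cck, Tac1, Penk, Pdyn and Cort, chosen by gene symbol from the 55414 genes of the count table. All 9 were among the 14464 genes tested. RNA came from the primary visual cortex (V1) of 24 male C57BL/6J mice, aged 8 weeks and kept on a reversed light cycle, sequenced as 24 libraries in 4 groups of 6. Every mouse received an intraperitoneal injection during its dark phase. Dark and light mice received vehicle (PBS), and psilocybin-dark and psilocybin-light mice received 5 mg/kg psilocybin, a compound of hallucinogenic mushrooms that the body turns into psilocin, a serotonin receptor agonist. Mice then spent 2.5 h in the dark or in light before the cortex was removed. The comparisons ask how an acute drug dose and an acute visual experience each change cortical transcripts, and how they act together.

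The light exposure of each library comes from sources that differ. By the column headings of a table in the study's supplement, the dark mice are libraries 1 to 6, the psilocybin-dark mice 7 to 12, the light mice 13 to 18 and the psilocybin-light mice 19 to 24. These headings set the groups used here. The sample labels match these headings for drug but give the reverse light exposure for each of the 24 libraries. Under the labels, libraries 1 to 6 would be the vehicle mice placed in light, so the direction of every difference between the dark and light groups would be turned. Under either source, the group set against the others below is libraries 1 to 6. Each mouse is called by its group and the number of its library.

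Neuropeptides are made as larger precursors, cut to size inside dense-core vesicles by prohormone convertases and released mainly when neurons fire strongly, after which they act on G protein-coupled receptors. In the cortex most are made by GABAergic interneurons, and Vip and Sst name major interneuron classes. Cck is also made by many glutamatergic neurons. Some precursor genes, Sst and Vip among them, are textbook targets of the transcription factor CREB, which binds the cAMP response element (CRE), and neuropeptide transcripts are therefore widely followed in studies of neuronal activity.

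Promoter windows from RefSeq (GRCm38.p6 table, 250 bases before to 50 bases after the start) were available for 7 of the 9 genes. The 250 bases before the start are printed 5′ to 3′ on the gene's strand for 3 genes that were higher than in dark mice and for Sst, which was not called, with the full CRE (TGACGTCA) or its TGACG core in capitals. Their GRCm39 positions are chr10:5588968-5589217 (+) for Vip, chr16:23709595-23709844 (−) for Sst, chr6:49799440-49799689 (+) for Npy and chr2:129541859-129542108 (−) for Pdyn.
Vip: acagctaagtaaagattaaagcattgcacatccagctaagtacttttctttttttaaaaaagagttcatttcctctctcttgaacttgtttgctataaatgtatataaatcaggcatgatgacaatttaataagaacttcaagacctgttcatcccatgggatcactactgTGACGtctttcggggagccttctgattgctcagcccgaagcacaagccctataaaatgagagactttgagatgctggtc
Sst: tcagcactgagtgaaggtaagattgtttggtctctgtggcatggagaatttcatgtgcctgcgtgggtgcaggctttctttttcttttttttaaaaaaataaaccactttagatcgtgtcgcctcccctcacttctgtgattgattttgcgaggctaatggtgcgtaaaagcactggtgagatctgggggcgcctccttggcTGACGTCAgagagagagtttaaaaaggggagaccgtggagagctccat
Npy: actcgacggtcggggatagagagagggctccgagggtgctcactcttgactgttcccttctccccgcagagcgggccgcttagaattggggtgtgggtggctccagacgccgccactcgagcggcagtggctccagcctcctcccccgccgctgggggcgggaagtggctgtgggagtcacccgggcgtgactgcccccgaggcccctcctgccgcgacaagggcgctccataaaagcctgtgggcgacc
Pdyn: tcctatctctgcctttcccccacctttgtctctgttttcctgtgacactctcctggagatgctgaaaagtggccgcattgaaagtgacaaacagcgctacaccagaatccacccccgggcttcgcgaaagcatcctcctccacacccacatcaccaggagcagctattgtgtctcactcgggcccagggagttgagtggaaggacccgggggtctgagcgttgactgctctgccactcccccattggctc
The full CRE lay 48 bases before the start of Sst and was in no other member's window, against 1.79% of all 32851 windows. The TGACG core, which the full CRE contains, was found on either strand in 5 of 7 members (Vip, Sst, Cck, Tac1 and Cort), against 20.81% of windows. The core of Vip lay 79 bases before the start of the gene. TATAAA lay 30, 147 and 157 bases before that start. TATAAA was in 13.62% of windows. Neither the AP-1 letters TGANTCA (7.808% of windows) nor the Egr letters GCGNGGGCG (5.552%) were found in any member's window. The printed Npy and Pdyn windows held none of the motifs searched. Letters in these windows are a description and were not related to the changes by a test.

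The tissue was checked against marker genes of cortex and of neighbouring regions, summed per mouse as normalized counts (counts scaled to the mean library size). Libraries of dark mice 1 and 6, psilocybin-dark mouse 12 and light mouse 18 held 14732 to 51840 summed counts of 8 cerebellar markers, against 380 to 2399 in the other 20. Over 11 hippocampal markers the dark mice held 1988 to 7056 and the other 18 mice 1626 to 2148. Of the 9 of these markers tested, 5, 3 and 6 were lower than in dark mice and 1, 0 and 1 higher in light, psilocybin-dark and psilocybin-light mice. Over all genes tested, 16.5%, 12.8% and 21.0% were lower and 15.4%, 11.9% and 17.4% higher in these 3 comparisons. Fibcd1 was lower in all 3 (log2 fold change −3.51, −3.71 and −3.83), while Bok was higher in light (0.60) and psilocybin-light mice (0.69). Over 10 markers of cortical glutamatergic neurons the dark mice held 15466 to 37739 and the others 33527 to 46054. Dark mice 1 (15466) and 6 (22962) set the low end. Of these 10 markers 6, 6 and 7 were higher and 0 lower in light, psilocybin-dark and psilocybin-light mice. Emx1, Cux2 and Rorb were higher in every comparison with dark, while Slc17a7, Fezf2 and Neurod6 were called in none. Thalamic markers were highest in dark mouse 1 (3527) and psilocybin-light mouse 23 (3481). The hypothalamic peptide genes Hcrt, Pmch, Avp, Oxt, Agrp and Ghrh reached at most 8 raw counts in any library. Pomc, also on that list, was tested and passed in none of the 3 comparisons (log2 0.62, 0.98 and 0.66). The summed hypothalamic markers were highest in psilocybin-dark mouse 12 (133), psilocybin-light mouse 24 (82.0) and light mouse 18 (77.4). The group medians of this sum were 25.7 to 29.2. The part of these regional differences in the results below was not tested beyond the fits that leave libraries out or take the hippocampal markers as a covariate.

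**Figure D1:**
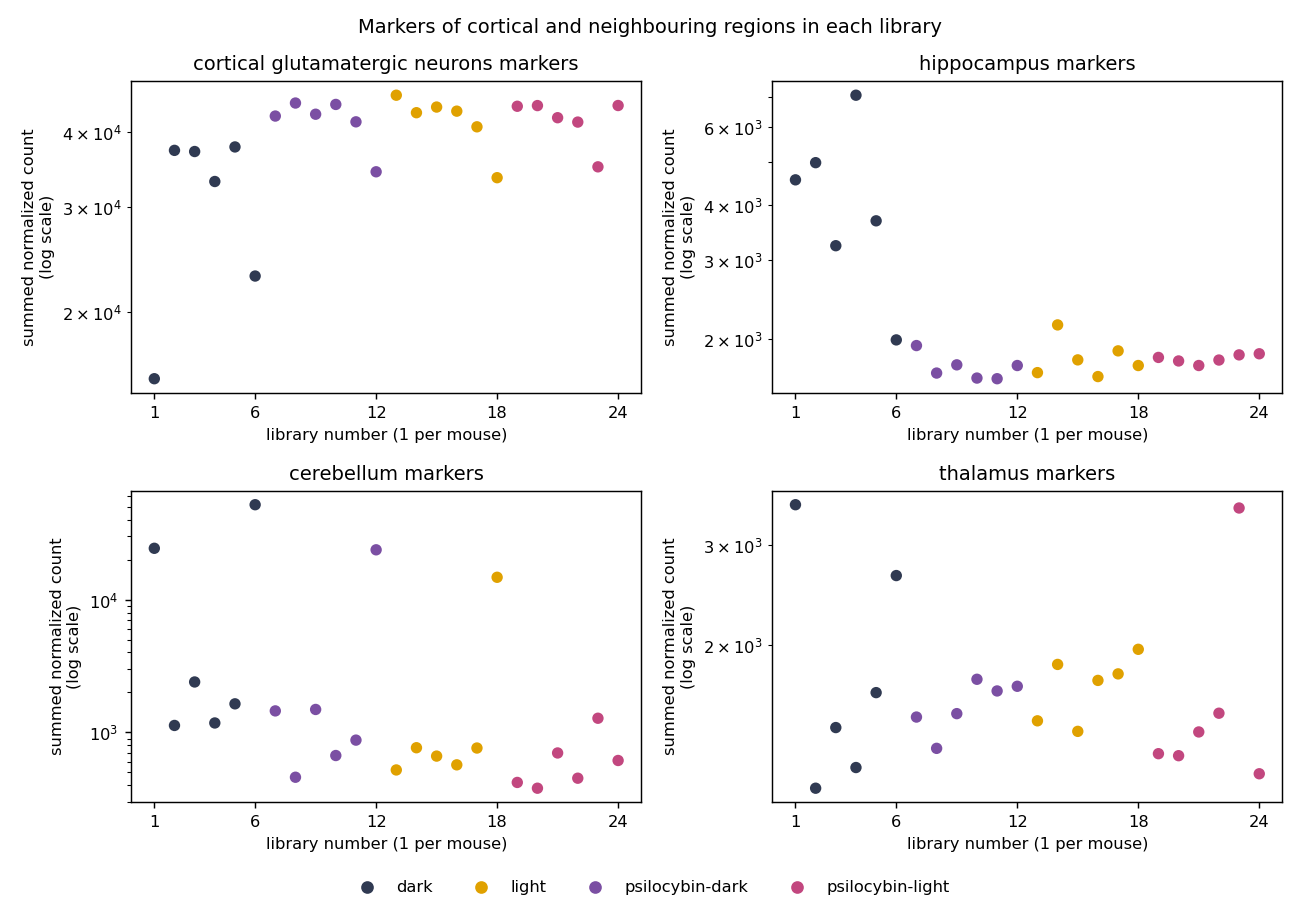
Summed normalized counts of 4 marker lists (log axes) in each of the 24 libraries, coloured by group. Libraries 1, 6, 12 and 18 stand apart for cerebellar markers at 14732 or more, and the dark mice lie highest for hippocampal markers, with dark mouse 6 at 1988 inside the range of the others.

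In light mice, 7 of the 9 precursors differed from dark mice in edgeR's quasi-likelihood test with Benjamini-Hochberg adjustment over all genes tested, where 31.9% of all genes were called. Pdyn, Crh, Npy, Vip and Cck were higher (5 of 9, against 15.4% of all genes), and Penk and Tac1 were lower (2 of 9, against 16.5%). In psilocybin-dark mice 7 of 9 differed from dark (all genes, 24.7%), with 5 higher (11.9%) and 2 lower (12.8%). In psilocybin-light mice 6 of 9 differed (38.4%), with 5 higher (17.4%) and 1 lower (21.0%). The 6 mice of each group did not overlap for 5 members in light against dark (10.0% of all genes), 2 in psilocybin-dark against dark (5.58%) and 6 in psilocybin-light against dark (15.8%). The median absolute log2 fold change of the 9 members was 1.11, 1.08 and 1.20 in the 3 comparisons, beside 0.17, 0.15 and 0.19 over all genes tested. All 3 comparisons share the 6 dark mice. Fewer cells of a type and less RNA per cell cannot be told apart in such bulk tissue.

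**Figure D2:**
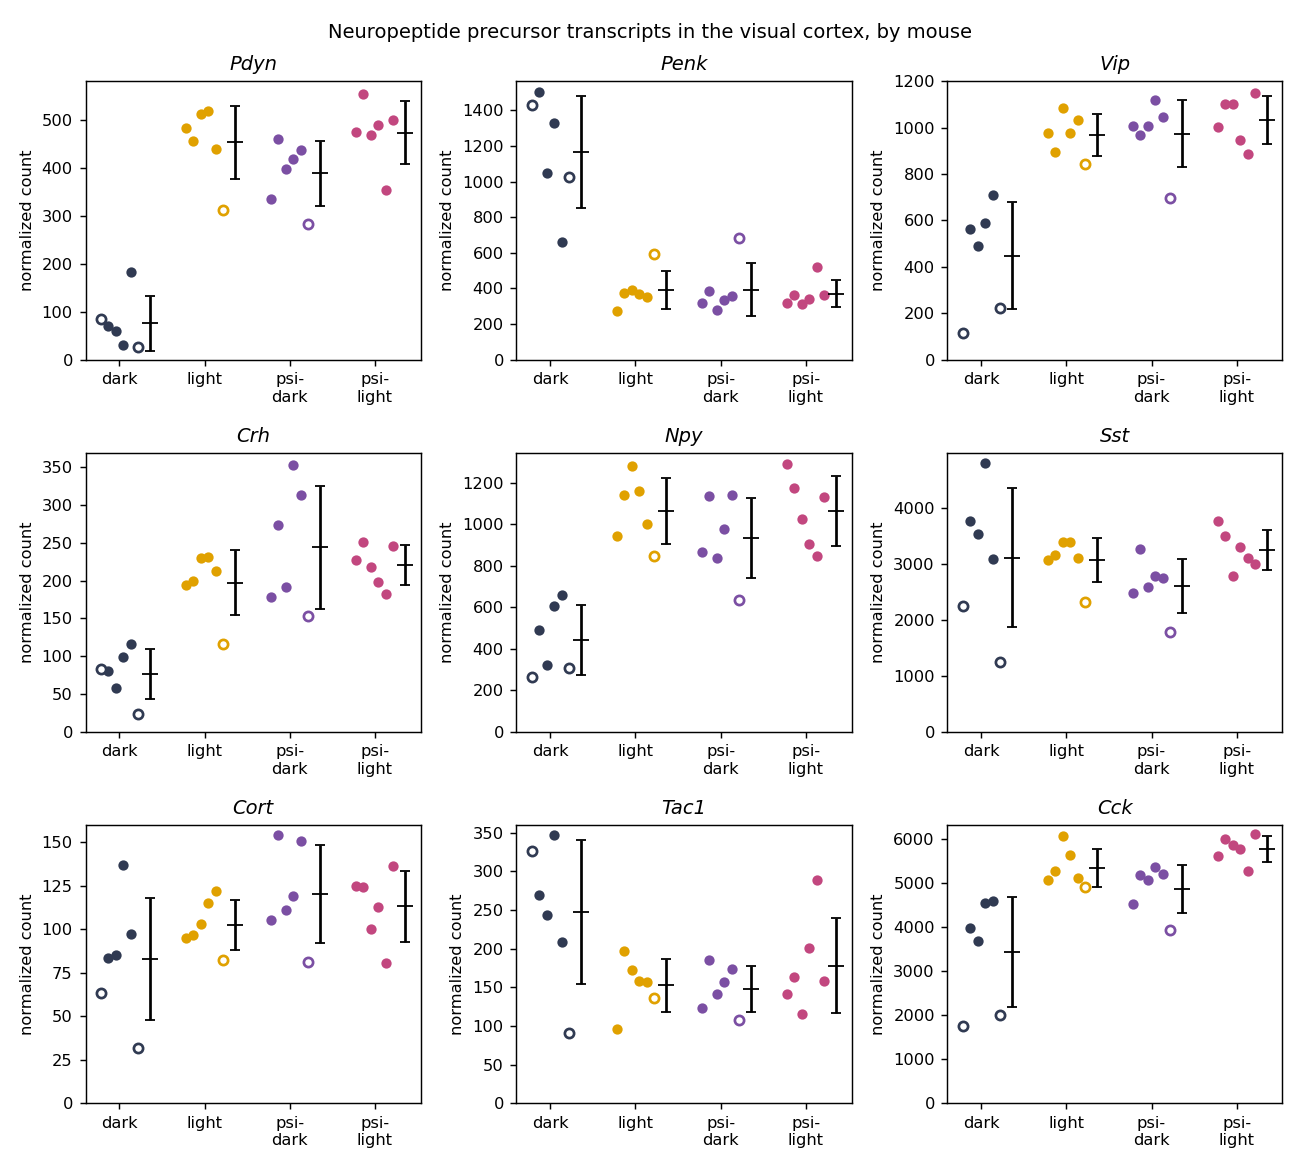
Normalized counts (y axes, from 0) of the 9 precursors in the 6 mice of each group, with the mean and SD in black; open circles mark libraries 1, 6, 12 and 18. For Pdyn every dark mouse lies at or below 184 and every other mouse at or above 282.

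**Figure D3:**
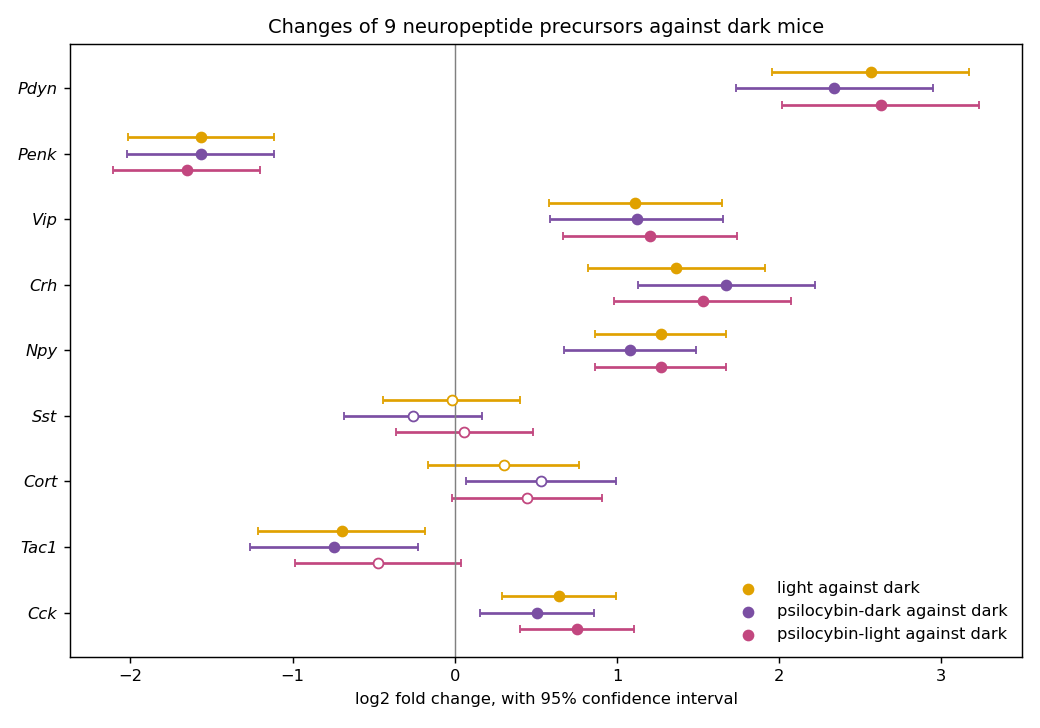
Log2 fold changes against dark mice with 95% confidence intervals (x axis) for the 9 precursors in light, psilocybin-dark and psilocybin-light mice. Filled points passed the adjusted threshold; Pdyn lies farthest above 0 and Penk farthest below, and the intervals of the 3 groups overlap for each gene.

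The opioid precursors changed in opposite directions. Pdyn (chr2:129528469-129541945, − strand) encodes prodynorphin, the source of dynorphins, which act on the kappa opioid receptor. Its normalized counts ran from 26.5 to 184 in dark mice (median 65.5), from 312 to 519 in light mice (median 470.0), from 282 to 460.0 in psilocybin-dark mice (median 408) and from 354 to 554 in psilocybin-light mice (median 481). All 18 mice exposed to light, drug or both lay above all 6 dark mice. Pdyn was 5.92-fold higher in light mice (log2 2.56 ± 0.29 SE, adjusted p = 2.60e-06), 5.06-fold higher in psilocybin-dark mice (2.34 ± 0.29, adjusted p = 1.39e-05) and 6.17-fold higher in psilocybin-light mice (2.63 ± 0.29, adjusted p = 8.56e-07). The two-sided exact permutation test gave p = 0.00216 for each, the smallest that 6 mice against 6 allow.

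Penk (chr4:4132722-4141856, − strand) encodes proenkephalin, the source of enkephalins, which act on delta and mu opioid receptors. Dark mice held 661 to 1501 normalized counts (median 1187), light mice 276 to 595 (median 373), psilocybin-dark mice 278 to 685 (median 345) and psilocybin-light mice 314 to 519 (median 352). Light and psilocybin-light mice lay wholly below the dark mice, while psilocybin-dark mouse 12 (685) lay above dark mouse 5 (661). Penk was 2.96-fold lower in light mice (log2 −1.57 ± 0.22, adjusted p = 1.68e-05), 2.96-fold lower in psilocybin-dark mice (−1.57 ± 0.22, adjusted p = 3.29e-05) and 3.14-fold lower in psilocybin-light mice (−1.65 ± 0.22, adjusted p = 5.76e-06). The highest Penk values of the exposed groups were in light mouse 18, psilocybin-dark mouse 12 and psilocybin-light mouse 23, the libraries of those groups with the highest cerebellar or thalamic marker sums. Without these 3 and dark mice 1 and 6, the log2 differences were −1.68, −1.77 and −1.73. Leaving out the highest exposed values itself lowers the exposed means, so this fit cannot show what part tissue content had. That part was not tested. An antisense long noncoding gene shares 390 exon bases with Penk, and since the strand setting of the counting was not given, its reads cannot be told apart from those of Penk.

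Among the opioid receptors, Oprm1 (mu) was lower in all 3 comparisons with dark (log2 −1.29, −1.04 and −1.54 in light, psilocybin-dark and psilocybin-light mice), from a low mean of 31.3 normalized counts in dark mice. Oprd1 (delta) was at 0.42 and 0.56 without passing the test and was higher in psilocybin-light mice at 0.66 (adjusted p = 0.0256). Oprk1, the kappa receptor, passed in none of the 3 (−0.40, −0.77 and −0.58).

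Crh (chr3:19747565-19749655, − strand), corticotropin-releasing hormone, is made in the cortex by interneurons, many of them Vip cells. It was a low transcript, at 22.8 to 116 normalized counts in dark mice (median 81.5), 116 to 231 in light mice (median 206), 153 to 353 in psilocybin-dark mice (median 233) and 182 to 251 in psilocybin-light mice (median 223). The lowest exposed mouse, light mouse 18, lay just under the highest dark mouse, mouse 5, and no other exposed mouse overlapped the dark range. Crh was 2.58-fold higher in light mice (log2 1.37 ± 0.26, adjusted p = 0.000436), 3.19-fold in psilocybin-dark mice (1.67 ± 0.26, adjusted p = 0.000112) and 2.88-fold in psilocybin-light mice (1.53 ± 0.26, adjusted p = 0.000101). Of its receptors and binding protein, Crhr1, Crhr2 and Crhbp passed the test in none of the 3 comparisons.

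Npy (chr6:49799026-49806489, + strand), neuropeptide Y, is made by subsets of Sst and neurogliaform interneurons. Its normalized counts were 262 to 658 in dark mice (median 406), 847 to 1281 in light mice (median 1071), 636 to 1142 in psilocybin-dark mice (median 922) and 846 to 1292 in psilocybin-light mice (median 1079). Psilocybin-dark mouse 12 was the sole exposed mouse within the dark range. Npy was 2.41-fold higher in light mice (log2 1.27 ± 0.20, adjusted p = 5.01e-05), 2.12-fold in psilocybin-dark mice (1.08 ± 0.20, adjusted p = 0.000389) and 2.41-fold in psilocybin-light mice (1.27 ± 0.20, adjusted p = 3.26e-05). Its receptor Npy2r was lower in all 3 (log2 −1.95, −2.12 and −2.03), but its dark mice ran from 20.1 to 835 and overlapped the 50.3 to 135 of the other groups. Npy5r was higher in light (0.39) and psilocybin-light mice (0.48), and Npy1r passed in none.

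Vip (chr10:5589186-5599956, + strand), vasoactive intestinal peptide, marks interneurons that mainly inhibit other interneurons. Dark mice held 116 to 712 normalized counts (median 526), light mice 843 to 1087 (median 976), psilocybin-dark mice 699 to 1121 (median 1006) and psilocybin-light mice 886 to 1149 (median 1053). Light and psilocybin-light mice lay wholly above the dark mice, and psilocybin-dark mouse 12 (699) lay just inside the dark range. Vip was 2.16-fold higher in light mice (log2 1.11 ± 0.26, adjusted p = 0.00220), 2.18-fold in psilocybin-dark mice (1.12 ± 0.26, adjusted p = 0.00288) and 2.30-fold in psilocybin-light mice (1.20 ± 0.26, adjusted p = 0.000844). The size depended on dark mice 1 (116) and 6 (222). Dark mice 2 to 5 held 490 to 712, and without mice 1 and 6 the log2 differences were 0.73, 0.73 and 0.82, each still past the threshold. Its receptor Vipr1 was higher in all 3 comparisons (0.80, 0.78 and 0.88), and Vipr2 was lower in light (−1.97) and psilocybin-light mice (−2.63).

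Cck (chr9:121315695-121324863, − strand), cholecystokinin, was the most counted of the 9. Dark mice held 1753 to 4605 normalized counts (median 3834), light mice 4902 to 6064 (median 5198), psilocybin-dark mice 3930 to 5365 (median 5123) and psilocybin-light mice 5280 to 6111 (median 5815). It was 1.56-fold higher in light mice (log2 0.64 ± 0.17, adjusted p = 0.00609), 1.42-fold in psilocybin-dark mice (0.51 ± 0.17, adjusted p = 0.0316) and 1.68-fold in psilocybin-light mice (0.75 ± 0.17, adjusted p = 0.00137). As with Vip, dark mice 1 (1753) and 6 (2008) lay far below dark mice 2 to 5 (3697 to 4605), and without them the log2 differences were 0.35, 0.22 and 0.47, all past the threshold. The call in psilocybin-dark mice was lost without dark mouse 1 or 6 or without psilocybin-dark mouse 8, 9, 10 or 11, at adjusted p between 0.0522 and 0.0662. Cckbr, the main cortical Cck receptor, was higher in all 3 (0.99, 0.89 and 0.86), from 209 to 960.0 normalized counts in dark mice to 1108 to 1484 in light mice. Cck shares 694 exon bases with antisense noncoding genes.

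Tac1 (chr6:7554120-7565834, + strand) encodes the tachykinins substance P and neurokinin A. Its normalized counts were 90.5 to 348 in dark mice (median 256), 95.9 to 197 in light mice (median 157), 108 to 185 in psilocybin-dark mice (median 149) and 116 to 289 in psilocybin-light mice (median 161). Dark mouse 6 was the lowest of all 24 mice, and the other 5 dark mice held 208 to 348. Tac1 was 1.62-fold lower in light mice (log2 −0.70 ± 0.25, adjusted p = 0.0361) and 1.67-fold lower in psilocybin-dark mice (−0.74 ± 0.25, adjusted p = 0.0329), and at −0.47 ± 0.25 in psilocybin-light mice it did not pass (adjusted p = 0.136). The exact permutation test gave p = 0.0909 for light and p = 0.0693 for psilocybin-dark mice, the groups overlapping in both. The call in light mice was lost without any 1 of 7 mice and that in psilocybin-dark mice without any 1 of 7 mice, while the psilocybin-light difference passed without dark mouse 6 (−0.64, adjusted p = 0.0151) or psilocybin-light mouse 23 (−0.67, adjusted p = 0.0362). With the hippocampal markers as a covariate its direction turned (0.27, 0.33 and 0.58) and it passed in none. The tachykinin receptors Tacr1 (−1.56, −2.06 and −1.58) and Tacr3 (−2.32, −2.23 and −2.58) were lower in all 3 comparisons.

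Sst (chr16:23707321-23711733, − strand), somatostatin, and Cort (chr4:149209491-149211266, − strand), cortistatin, its relative that binds the same receptors, were not called against dark in any group with all mice in the fit. Sst held 1237 to 4811 normalized counts in dark mice (median 3309), 2312 to 3391 in light mice, 1776 to 3270 in psilocybin-dark mice and 2780 to 3771 in psilocybin-light mice. The dark mice spanned all other mice in both directions. The log2 differences from dark were −0.02 (95% CI −0.44 to 0.41), −0.26 (−0.68 to 0.17) and 0.06 (−0.36 to 0.48), so the intervals reached at most −0.68 and 0.48. These values too rested on which dark mice were counted. Without dark mice 1 and 6 (2248 and 1237), Sst was lower in psilocybin-dark mice (−0.54, adjusted p = 0.00393; without mouse 6 alone −0.42, adjusted p = 0.0417), and without mice 2 to 5 it was higher in all 3 groups (0.82, 0.58 and 0.91). Cort held 32.0 to 137 in dark mice, 82.4 to 122 in light mice, 81.1 to 154 in psilocybin-dark mice and 80.6 to 136 in psilocybin-light mice, with log2 differences of 0.30, 0.53 and 0.45 (adjusted p = 0.322, 0.0850 and 0.119). Cort was called higher in psilocybin-dark mice without dark mouse 4 (0.73, adjusted p = 0.0176) or psilocybin-dark mouse 12 (0.63, adjusted p = 0.0401), and in psilocybin-light mice without dark mouse 4 (0.65, adjusted p = 0.0209). Of the Sst receptors, Sstr1 was lower in all 3 comparisons (−1.06, −1.07 and −0.90), but its dark mice ran from 192 to 1011 normalized counts. That range spanned the 253 to 365 of the other groups. Sstr3 was lower in light mice (−0.22, adjusted p = 0.0277) and did not pass in the other groups, and Sstr2 and Sstr4 passed in none.

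The order of the precursors by level was compared per kilobase of the canonical transcript. In dark mice the mean normalized count per kilobase fell from Sst (1806 ± 722 SD, n = 6) through Cck (860 ± 313), Npy (778 ± 297), Penk (424 ± 115), Vip (286 ± 147), Cort (115 ± 48.3), Tac1 (104 ± 38.8) and Crh (53.9 ± 23.2) to Pdyn (29.5 ± 22.1). Each neighbouring pair in this order overlapped between mice. In light mice Npy (1877 ± 283) and Sst (1783 ± 230) overlapped at the top, Cck (1340 ± 108) overlapped Sst, and Vip (618 ± 56.6) lay apart from both its neighbours. Below it Pdyn (175 ± 29.3), Penk (143 ± 38.9), Cort (142 ± 19.8), Crh (139 ± 30.3) and Tac1 (63.9 ± 14.3) each overlapped the next. Pdyn was thus last of 9 in dark mice and ranked 5 in light mice, and Penk went from rank 4 to 6. With the length of all merged exons instead, Pdyn ranked 9 and 8 and Penk 3 and 6, so the ranks depend on the transcript length taken.

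The 3 exposed groups were also compared with each other directly. Between psilocybin-light and light mice 0 of 9 members were called (0.608% of all genes), with log2 differences from −0.09 to 0.22. Between psilocybin-light and psilocybin-dark mice 0 of 9 were called (6.38% of all genes), with differences from −0.15 to 0.32, and between psilocybin-dark and light mice 0 of 9 (0.456%), with differences from −0.24 to 0.31. At an unadjusted p under 0.05 there were 0 members in each of the 3, by edgeR and by DESeq2, and DESeq2 called 0 in each. The exact permutation test, unadjusted over the 9 members and 3 pairs of groups, gave a smaller p between psilocybin-light and psilocybin-dark mice for Cck (log2 0.24, exact permutation p = 0.00433), where 5 of 6 psilocybin-light mice lay above all psilocybin-dark mice, and for Sst (0.32, exact permutation p = 0.0216), where 3 of 6 did. The 95% intervals reached at most 0.74, 0.83 and 0.82 on the log2 scale, which bounds but does not exclude a difference. Cck was called higher in psilocybin-light than psilocybin-dark mice with the other groups left out of the fit (0.24, adjusted p = 0.0392) and without dark mice 1 and 6 (0.25, adjusted p = 0.0233). Under the light exposure of the labels, comparisons with the light group are comparisons with libraries 1 to 6. In that assignment 7 members were called in psilocybin-light (24.7% of all genes) and 6 in psilocybin-dark mice (38.4%).

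The interaction tested whether the psilocybin-light change equalled the sum of the light and psilocybin-dark changes on the log2 scale. It passed for 4 of 9 members, against 8.75% of all genes. For Pdyn the sum of the changes was 4.90 and the observed change 2.63, a shortfall of 2.28 ± 0.39 (interaction log2 −2.28, adjusted p = 0.00221). For Crh the sum was 3.04 and the observed change 1.53 (−1.51 ± 0.36, adjusted p = 0.0128), and for Npy 2.35 and 1.27 (−1.08 ± 0.27, adjusted p = 0.0173). For Penk the sum was −3.13 and the observed change −1.65 (1.48 ± 0.31, adjusted p = 0.00610). Vip had a like shortfall that did not pass (−1.03 ± 0.36, adjusted p = 0.0746; DESeq2, adjusted p = 0.0465). In each of these, with the groups of the headings, the combined exposure lay near the level of either exposure alone rather than at their sum. Under the light exposure of the labels the sign of each interaction would be turned. The combined exposure would then lie near the dark and psilocybin-dark groups and apart from the light group. The interaction uses the dark mice together with all other groups.

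With the hippocampal markers as a covariate, which the dark group largely sets, 2, 0 and 2 members were called in light, psilocybin-dark and psilocybin-light mice, against 7.41%, 0.00% and 9.39% of all genes, and 0 for the interaction (0.00% of all genes). The calls in light and psilocybin-light mice were Pdyn (log2 2.39 and 2.43) and Penk (−0.98 and −0.99). Pdyn was at 2.15 and Penk at −0.95 in psilocybin-dark mice (adjusted p = 0.134 and 0.189), and Vip was at 0.72, 0.69 and 0.77 (adjusted p = 0.350, 0.638 and 0.339). Without dark mice 1 and 6, light mouse 18, psilocybin-dark mouse 12 and psilocybin-light mouse 23, 7, 8 and 7 members were called in the 3 comparisons, against 43.6%, 39.1% and 47.6% of all genes, and 7 for the interaction (26.5%), with Pdyn at 2.46, 2.23 and 2.52. Leaving out any 1 mouse changed no call of Pdyn, Penk, Crh, Npy or Vip against dark.

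The GABA-synthesizing enzyme Gad1 served as a common scale for interneuron transcripts. It was not called in any comparison with dark (log2 −0.12, −0.11 and −0.08), which does not show that it was stable. Gad1 ran from 5241 to 9553 normalized counts in dark and from 5926 to 6607 in light mice. Gad2, another interneuron marker, was lower in all 3 comparisons (−0.29, −0.20 and −0.31). Per 100 Gad1 counts, Vip went from 7.22 ± 4.26 (SD, n = 6) in dark mice to 15.5 ± 1.94 in light and 15.7 ± 3.27 in psilocybin-dark mice (exact permutation p = 0.00216 and 0.00649). Npy went from 6.91 ± 3.27 to 17.0 ± 3.00 and 15.1 ± 4.06 (exact permutation p = 0.00216 and 0.00866), and Pdyn from 1.21 ± 0.96 to 7.27 ± 1.40 and 6.25 ± 1.48 (exact permutation p = 0.00216 for both). Penk went from 17.9 ± 6.75 to 6.25 ± 1.52 and 6.10 ± 1.54 (exact permutation p = 0.00216 for both). Sst was at 49.6 ± 24.0 in dark mice and at 49.2 ± 7.59 and 42.1 ± 10.7 in the others (exact permutation p = 0.740 and 0.870). Tac1 was at 3.88 ± 1.61 in dark mice and at 2.43 ± 0.55 and 2.38 ± 0.62 in the others (exact permutation p = 0.175 and 0.167). Cck went from 54.4 ± 25.3 to 85.5 ± 9.56 and 78.3 ± 14.0 (exact permutation p = 0.00649 and 0.104), where the exact permutation test on library-size counts gave p = 0.00216 and 0.0260.

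Within groups, members also varied together from mouse to mouse. Over log2 values with group means subtracted, the Pearson r over 24 mice was 0.96 between Vip and Cck, 0.90 between Sst and Cort and 0.83 between Crh and Cort, and between Pdyn and Penk it was −0.48. Part of this rests on the 4 libraries with the most cerebellar markers. Over the other 20 mice Vip and Cck gave 0.73, Sst and Cort 0.60, Vip and Sst moved from 0.66 to −0.22, Crh and Npy from 0.69 to 0.81, Penk and Tac1 from 0.30 to 0.76 and Pdyn and Penk from −0.48 to −0.62. These values share libraries, depth and tissue content and are given as a description.

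**Figure D4:**
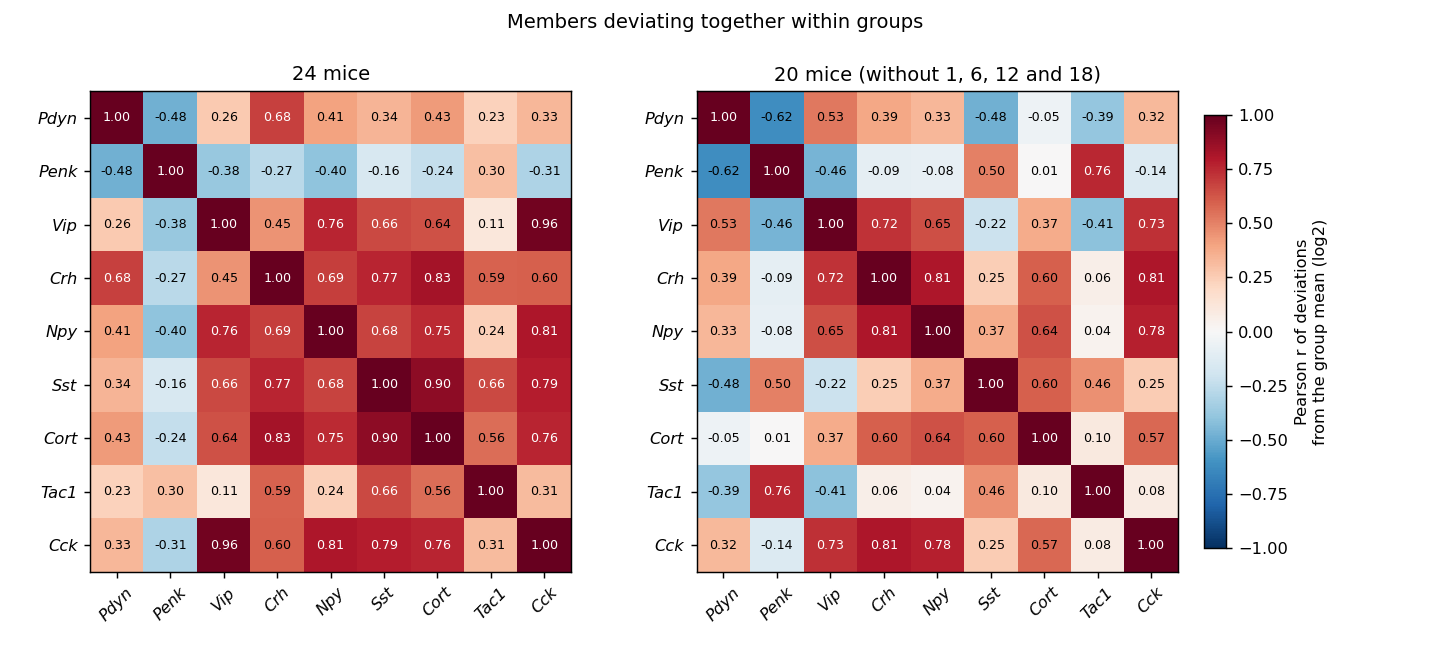
Pearson r between precursors over log2 values with group means subtracted, for 24 mice (left) and for the 20 mice without libraries 1, 6, 12 and 18 (right); colour runs from −1 to 1. Vip and Cck go from 0.96 to 0.73, and Vip and Sst from 0.66 to −0.22.

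Of 13232 genes searched over all 24 mice, those most like Pdyn were Trbc2 (r = 0.98) and Mdfic2 (0.97), those most like Penk were Frem2 and Rpa1 (both 0.94), and those most like Vip were Stx1a and Glt8d2 (both 0.98). Mylk3 and Camk2n1 (both 0.96) were most like Npy, Kcnq5 and Myl4 (both 0.94) most like Crh, and Kcnh3 (0.98) and Strn4 (0.97) most like Cck. Tmem179 (0.95) and Aplp1 (0.93) were most like Sst, Ptprn (0.92) and Iqgap2 (0.91) most like Cort, and Grin2d and Resp18 (both 0.85) most like Tac1. After group means were subtracted r ranged from 0.73 for Frem2 with Penk to 0.97 for Kcnh3 with Cck.

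The wider neuropeptide machinery was followed in 4 lists. The counts of each list stand beside all genes tested, of which 15.4% were called higher and 16.5% lower in light mice. These shares were 11.9% and 12.8% in psilocybin-dark and 17.4% and 21.0% in psilocybin-light mice. Of 25 genes listed as receptors and binding proteins of the member peptides 20 were tested. Of these 3 were higher and 9 lower in light, 2 and 7 in psilocybin-dark and 4 and 7 in psilocybin-light mice. Their median log2 differences were −0.25, −0.24 and −0.18, beside −0.01, −0.02 and −0.02 over all genes. The receptors that were lower in all 3 comparisons included Tacr3, Npy2r, Tacr1, Oprm1 and Sstr1, and those higher in all 3 were Cckbr and Vipr1. Mrgpre, counted in the list, was also lower in all 3, but its pairing with a member peptide was not tested. Sstr5, Npy4r, Cckar, Tacr2 and Ghsr were not tested, with at most 29 raw counts in any library.

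All 19 genes of peptide processing and dense-core vesicles were tested. There were 7 higher and 3 lower in light, 6 and 1 in psilocybin-dark and 9 and 3 in psilocybin-light mice, with medians of 0.12, 0.14 and 0.16. Pcsk2, a prohormone convertase, was higher in all 3 (log2 0.64, 0.67 and 0.79), at 2892 to 6344 normalized counts in dark and 5791 to 7927 in light mice. Scg5, the chaperone of that convertase, was higher in all 3 (0.39, 0.30 and 0.53), as were the granin Scg3 (0.23, 0.29 and 0.22) and Vgf, a secreted peptide precursor induced by activity (0.61, 0.75 and 0.72). Pcsk1, the other main convertase, was higher in psilocybin-dark mice (0.75, adjusted p = 0.000488). The vesicle priming gene Cadps2 was lower in all 3 (−0.82, −0.65 and −0.90).

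Of 19 other peptide precursors 14 were tested, and 1 was higher and 4 lower in light, 1 and 3 in psilocybin-dark and 0 and 3 in psilocybin-light mice, with medians of −0.26, −0.27 and −0.17. Trh, thyrotropin-releasing hormone, was lower in all 3 (log2 −6.85, −5.62 and −6.12), with dark mice spread from 6.47 to 1637 normalized counts (median 381) and light mice at 1.00 to 9.30. Nts, neurotensin, was lower in all 3 as well (−3.07, −2.89 and −2.78), from 30.2 to 232 in dark mice to 2.86 to 33.3 in light mice. Gal was lower in light and psilocybin-dark mice, but the median dark mouse held 0.929 normalized counts and the highest 48.3. Nppc was lower (−0.41) and Apln higher (0.62) in light mice, and Adcyap1 was higher in psilocybin-dark mice (0.80, adjusted p = 0.0249).

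Of 24 interneuron markers that are not peptides, 3 were higher and 8 lower in light, 3 and 8 in psilocybin-dark and 3 and 9 in psilocybin-light mice, with medians of −0.22, −0.17 and −0.25. Lamp5, a marker of neurogliaform interneurons that glutamatergic neurons of the upper layers also express, was higher in all 3 (1.87, 1.96 and 2.10), at 385 to 1584 in dark and 2363 to 4024 in light mice. Satb1 was also higher in all 3 (0.67, 0.77 and 0.56). Nos1, the neuronal nitric oxide synthase, was lower in all 3 (−2.04, −1.68 and −2.11), at 2422 to 4442 in dark and 601 to 1264 in light mice. Sncg, Chodl, Reln, Ndnf, Cnr1, Adarb2 and Gad2 were lower with it. For Sncg the dark mice ran from 11.9 to 421 (median 25.5) and overlapped the light mice at 9.59 to 19.8. Chodl and Nos1 together mark a rare class of Sst and Npy neurons, and Chodl was at 9.14 to 92.1 in dark and 5.39 to 17.6 in light mice. Npy, however, was higher in all 3 comparisons, and Sst was called in none with all mice in the fit. In dark mice the mean was 3306 normalized counts for Nos1 and 36.9 for Chodl. What part of the Nos1 counts came from this class was not tested. Gad1 and Slc32a1, the vesicular GABA transporter, passed in none of the 3.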

How the data were processed

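Poly-A enriched RNA of V1 was sequenced in 24 libraries. The authors trimmed reads with cutadapt, mapped them with STAR and ran htseq-count on Ensembl genes. Raw counts, with no normalization, were deposited. The study's methods name GRCm39 and the submitters' processing notes mm10; the annotation release and strand setting are not given in the sources used here. Totals were 13552516 to 17906994 counts per mouse, and within groups all 60 pairs of libraries differed by more than sampling noise (chi-square per degree of freedom at least 3.09). The labels do not say that each library is 1 mouse, and p-values then measure only the spread between these libraries.

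Counts were fitted in R 4.3.3 with edgeR 4.0.16 (TMM, quasi-likelihood F test, 1 term per group, all 24 mice) for the 14464 genes that reached 30 counts in any library. Called means an adjusted p under 0.05 (Benjamini-Hochberg over all genes tested). The common biological coefficient of variation was 0.182, and the fit was tested on simulated data. Normalized counts are scaled to the mean effective library size. Exact two-sided permutation tests ran over the 924 splits of 6 mice against 6, on log2 of the normalized count plus 0.5. Alternatives were DESeq2 1.42.0 (the study's test), other normalization and filters, the compared groups alone, the labels' light exposure, a hippocampal covariate and left-out mice. The fit without 5 libraries, psilocybin-light mouse 23 among them, was chosen after seeing the data. Positions came from GENCODE vM39 (GRCm39).

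The 9 members, the lists and the tests were chosen with earlier results of these data known. All members were named, and from each list of related genes those called in light or psilocybin-dark mice, by size in light mice, at most 8, with the receptors of each member. The 2 most alike genes per member were those of highest Pearson r, at a mean normalized count of at least 30. No protein sequences were used here. Values of some list genes are not reported here.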

Additional observations from a re-analysis of the deposited data

Results flagged for a closer look

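In 36 groups of 6 mice (9 members in 4 groups), 6 had a mouse whose gap to its nearest neighbour exceeded Dixon's 95% critical value. Chance gives about 1 in 20 for independent groups. These 36 share libraries and are not independent, and all 6 came from mice 12, 18 and 23. Psilocybin-dark mouse 12 was the lowest of its group for Vip at 699 normalized counts and the highest for Penk at 685. Light mouse 18 was the lowest of its group for Sst at 2312 and for Crh at 116, and the highest for Penk at 595. Psilocybin-light mouse 23 was the highest of its group for Penk at 519. Mice 12 and 18 held 23719 and 14732 summed counts of cerebellar markers, the most in their groups, and mouse 23 held 3481 of thalamic markers, the most in its group. The part of these markers in the values was not tested.

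The interaction term in edgeR, a difference in the light effect between vehicle and psilocybin mice, was called for 4 of 9 members. Over all genes tested the share was 8.75%. The interaction was −2.28 for Pdyn, −1.51 for Crh, −1.08 for Npy and 1.48 for Penk on the log2 scale. Their adjusted p-values were 0.00221, 0.0128, 0.0173 and 0.00610. Under the light exposure of the labels each of these signs would be turned. With the hippocampal markers as a covariate the interaction was called for 0 members and 0.00% of all genes. The term uses the dark mice, and between the exposed groups 0 of 9 members were called in each pair. The shares of all genes in these pairs were 0.608% (psilocybin-light against light), 6.38% (psilocybin-light against psilocybin-dark) and 0.456% (psilocybin-dark against light).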

How the results depend on the processing

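DESeq2, its size factors, either other filter on low counts and all 24 fits without 1 mouse kept the count of members called in light, psilocybin-dark and psilocybin-light mice within 1.5 times. With the compared groups alone it was 5, 5 and 6. Across the fits without 1 mouse it was 6 to 7, 5 to 7 and 6 to 7, and 4 to 5 for the interaction. The shares of all genes called in these fits are not given here. With the hippocampal markers as a covariate the counts were 2, 0 and 2 (7.41%, 0.00% and 9.39% of all genes), and 0 for the interaction (0.00%). In that fit Sst (0.24 and 0.025 in light and psilocybin-dark mice) and Tac1 (0.27, 0.33 and 0.58 in the 3 groups) turned direction, and the cause was not tested. For the interaction, 7 members were called without dark mice 1 and 6, without dark mice 2 to 5, without mice 1, 6, 12 and 18 and without these and mouse 23, and 2 at an adjusted p under 0.01. Between psilocybin-light and psilocybin-dark mice 1 member, Cck, was called in those 4 fits and with the compared groups alone. The interaction was not run with the compared groups alone, since it uses all 4.

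Under the light exposure of the labels, the counts against the dark group were 7 in light (31.9% of all genes), 0 in psilocybin-dark (0.608%) and 0 in psilocybin-light mice (0.456%). The counts were 7 for psilocybin-light against light (24.7%) and 6 for psilocybin-dark against light (38.4%), since libraries 1 to 6 then form the light group. In that assignment light against dark was −1.11 for Vip, 0.019 for Sst, −1.27 for Npy, −1.37 for Crh, −0.64 for Cck, 0.70 for Tac1, 1.57 for Penk, −2.56 for Pdyn and −0.30 for Cort. Psilocybin-dark against dark was then 0.078 for Sst and 0.22 for Tac1, and psilocybin-light against dark −0.24 for Sst, −0.19 for Npy, −0.13 for Cck and −0.22 for Pdyn.

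The direction for Sst, which was near 0, also turned without dark mice 2 to 5 (0.82 and 0.58 in light and psilocybin-dark mice) and, in psilocybin-light mice, without dark mice 1 and 6 (−0.22), without libraries 1, 6, 12 and 18 (−0.22) or without these and mouse 23 (−0.21). Without 1 mouse it ranged from −0.18 to 0.15 in light and from −0.10 to 0.23 in psilocybin-light mice. Of 648 member values from fits without 1 mouse, 616 kept direction and side of the threshold, 20 fell below it, 6 passed it and 6 turned. Depth limits the precision for low transcripts such as Crh, Cort and Pdyn, which had under 200 normalized counts in every dark mouse.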
